A study of Mus musculus with 6 samples.

Results

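The genes described here are 9 members of the intrinsic, or mitochondrial, route of apoptosis: Bax, Bak1, Bcl2, Bcl2l1, Bcl2l11, Bbc3, Pmaip1, Casp9 and Apaf1. They were chosen by name, 9 of the 24661 genes in the files, and all 9 had counts in every mouse. RNA-Seq was performed on the whole olfactory mucosa of 3 wild-type mice and 3 RTP1,2DKO mice, which lack the coding regions of Rtp1 and Rtp2 in every cell (genotype -/- for both genes). All mice were C57BL/6 by the sample labels and were taken at postnatal day 21. The methods add that they were sex-matched littermates, that the mutant allele was made in ES cells of mixed 129 and B6 origin and then crossed to C57BL/6, and that the dissected mucosa includes tissue around the epithelium. The comparison of genotypes asks whether the RNA of these genes differs in a mucosa in which the study looked at cell death of OSNs, the olfactory sensory neurons.

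In the intrinsic route, the effectors Bax and Bak1 open pores in the outer mitochondrial membrane. Bcl2 and Bcl2l1 (Bcl-xL) hold the effectors in check, and the BH3-only proteins Bcl2l11 (Bim), Bbc3 (Puma) and Pmaip1 (Noxa) release that check. Cytochrome c leaving the mitochondria then assembles Apaf1 into the apoptosome, which activates the initiator caspase encoded by Casp9. OSNs are replaced throughout life in the olfactory epithelium, and loss of Bax is known to reduce their death. Much of the control of this route is exerted on the proteins (binding, phosphorylation, cleavage), which RNA levels do not show.

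The members of the BCL2 family share the BH3 region through which activators, effectors and guardians bind each other. It is shown here because it is the sequence that links the members of that family, to which Casp9 and Apaf1 do not belong. The coding stretches below were read from GENCODE M21 transcripts (GRCm38) where a leucine codon was followed by any 3 codons, a glycine or alanine codon, an aspartate codon and then an aspartate or glutamate codon. They are given 5′ to 3′ on the coding strand, with the leucine codon and the glycine or alanine and aspartate codons in capitals.
Bax: tgtCTCcggcgaattGGAGATgaactg
Bak1: cagCTTgctctcatcGGAGATgatatt
Bcl2: accCTCcgccgggctGGGGATgacttc
Bcl2l1: gcgCTGagagaggcaGGCGATgagttt
Bcl2l11: gagCTGcggcggatcGGAGACgagttc
Bbc3: cagCTGcggcggatgGCGGACgacctc

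The stretch of Bcl2 lies in exon 1 at chr1:106712578-106712604 on the minus strand and that of Bcl2l1 in exon 2 at chr2:152829700-152829726, also on the minus strand. Bax carries it in exon 3 (chr7:45466000-45466026, minus strand) and Bak1 in exon 4 (chr17:27022534-27022560, minus strand). In Bcl2l11 it lies in exon 3 (chr2:128147147-128147173, plus strand) and in Bbc3 in exon 3 (chr7:16313770-16313796, plus strand). The alanine codon of Bbc3 stands where the other 5 have glycine. The pattern was not found in Casp9, and it was found once in Apaf1, which is not of the BCL2 family. It was also not found in Pmaip1, although Pmaip1 encodes a BH3-only protein, so a missing match does not exclude the region. Of 21562 protein-coding genes, 3.5% had at least 1 match in their longest coding sequence, so a match alone does not define the domain.

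Total estimated counts were between 31125410 and 41636996 per mouse, and Bpifb9b, a secreted protein gene, took between 4.81% and 13.7% of them. The targeted genes followed the labels. Values per mouse are given in the order of mice 1, 2 and 3 of each group. Rtp1 had 20522, 25301 and 13543 normalized counts in the wild-type and 90.6, 85.5 and 108.8 in RTP1,2DKO. Rtp2 had 8497, 9511 and 7157 normalized counts in the wild-type and 58.0, 26.2 and 51.0 in RTP1,2DKO. Among the 22152 genes that reached 1 count in any mouse, edgeR's quasi-likelihood test with Benjamini-Hochberg adjustment called 799 (3.61%) at an adjusted p under 0.05, of which 697 were lower (3.15%) and 102 higher (0.46%) in RTP1,2DKO. With the mice paired by number, 816 were lower and 196 higher.

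Of the 9 members, 1 passed the test. Bcl2 fell in RTP1,2DKO, and none of the other 8 passed in either direction, including both effectors, all 3 BH3-only genes and both apoptosome genes. The median log2 fold change of the 9 was 0.03, against 0.02 over all genes tested. The groups did not overlap for 3 of the 9, against 16.4% of all genes tested. Bcl2 and Apaf1 were the 2 that were lower (9.24% of all genes) and Bcl2l1 was the 1 that was higher (7.17% of all genes). At an unadjusted p under 0.05 there were 2 members, Bcl2 and Bcl2l1, and 11.8% of all genes tested. In a bulk sample, fewer cells of a type and less RNA per cell cannot be told apart.

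**Figure D1:**
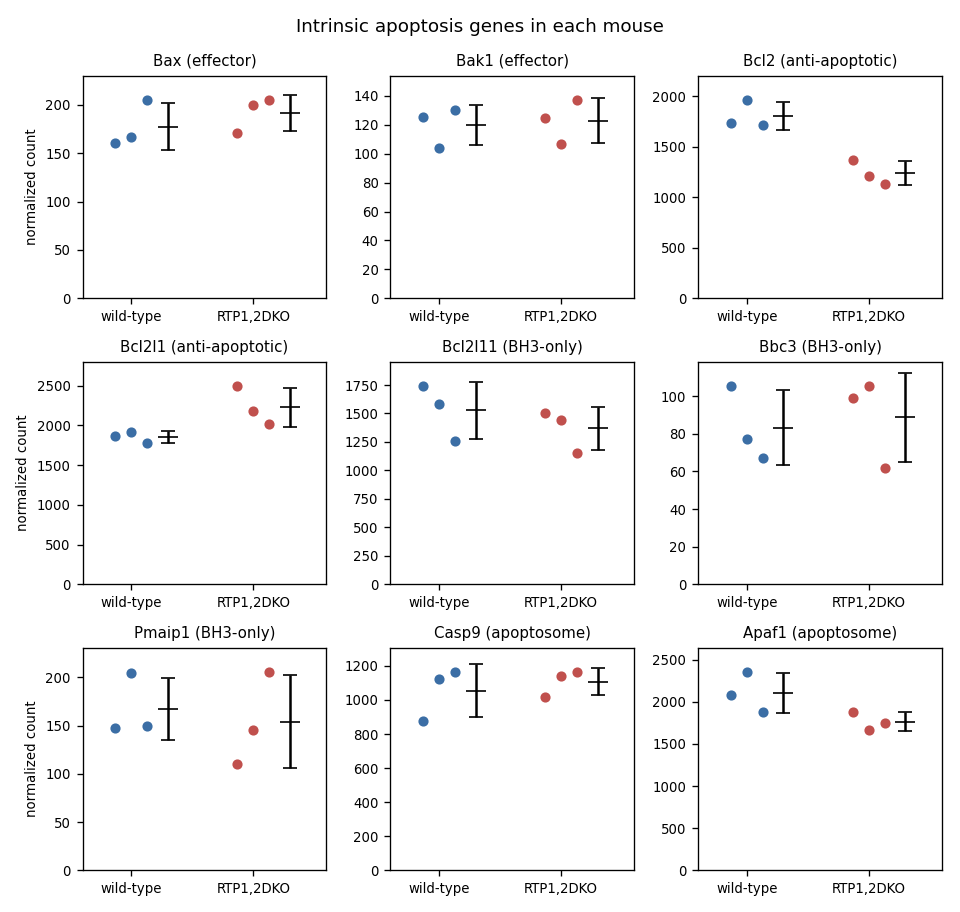
Normalized counts (estimated counts divided by the size factor, linear axes from 0) of each member in 3 wild-type mice (blue) and 3 RTP1,2DKO mice (red). Points are mice, and the black bar is the mean with its SD. Bcl2 shows the widest gap between the groups, at most 1372 in RTP1,2DKO and at least 1721 in the wild-type.

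Bcl2, the founding anti-apoptotic gene of the family, lies on chromosome 1 from 106538178 to 106714274 (GRCm38, minus strand). It had 1739, 1966 and 1721 normalized counts in the wild-type and 1372, 1210 and 1136 in RTP1,2DKO. Every RTP1,2DKO mouse lay below every wild-type mouse. The means were 1809 ± 137 (SD, n = 3 mice) and 1239 ± 121 (SD, n = 3), a log2 fold change of -0.55 (standard error, SE, 0.12, 95% interval -0.81 to -0.28, adjusted p = 0.024 by edgeR's quasi-likelihood test), which is a decrease of 31.5%. The call was kept in 3 of the 6 fits that left out a mouse, which have fewer mice than the main fit. Some other settings lost the call too. The direction was the same in all 12 alternatives. Without wild-type mouse 2 the adjusted p was 0.082, without RTP1,2DKO mouse 2 it was 0.10 and without RTP1,2DKO mouse 3 it was 0.14 (edgeR's quasi-likelihood test), with log2 fold changes of -0.48, -0.53 and -0.49. It was 0.099 when libraries were scaled to their total count and 0.098 when the length of the transcripts in use was taken into account (same test). With pairs as a block the adjusted p was 0.018, and with DESeq2's Wald test 0.0025.

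Bcl2 and the markers of mature OSNs were both lower in RTP1,2DKO. How closely they followed each other from mouse to mouse was not tested. The 9 markers chosen for these cells besides Rtp1 were Omp, Adcy3, Cnga2, Cnga4, Cngb1, Gnal, Gng13, Ano2 and Stoml3, which encode the olfactory marker protein and parts of odorant transduction. All 9 were lower without overlap of the groups, and 8 of 9 passed the test, with log2 fold changes from -2.00 to -0.76. Their summed level was 161671 to 186650 normalized counts in the wild-type and 81949 to 88586 in RTP1,2DKO, and none was at 0 in any mouse. For Omp alone the log2 fold change was -0.90 (SE 0.15). The estimate for Bcl2 was thus smaller in size than that of each of the 9 markers, and the difference was not tested. The part of mature OSN number in the Bcl2 result was not tested.

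By the rule of highest Pearson r over the 6 mice among 13900 genes with a mean of at least 100 normalized counts, the genes most like Bcl2 were Olfr1157 (r = 0.998), Hdac9 (r = 0.997) and Olfr1477 (r = 0.996). These are a pair of olfactory receptor genes and a class IIa histone deacetylase. Their log2 fold changes were -2.31, -1.02 and -2.01. The 6 points share the genotype difference, and 199 genes had an r above 0.95, so these values only describe the ranking.

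Bcl2l1, the other guardian, lies on chromosome 2 from 152780668 to 152831728 (minus strand). It had 1871, 1923 and 1777 normalized counts in the wild-type and 2499, 2182 and 2015 in RTP1,2DKO. The lowest RTP1,2DKO mouse was above the highest wild-type mouse, the opposite order to Bcl2. The means were 1857 ± 74.1 (SD, n = 3 mice) and 2232 ± 246 (SD, n = 3), and the log2 fold change of 0.26 (SE 0.12, 95% interval 0.01 to 0.52) did not pass (adjusted p = 0.41 by edgeR's quasi-likelihood test). Its direction was the same in all 12 alternatives, with adjusted p-values from 0.32 to 0.82. Both guardians together, summed, had 3498 to 3890 normalized counts in the wild-type and 3151 to 3871 in RTP1,2DKO, ranges that overlapped. These sums are not corrected for transcript length, so they do not give a total level of the guardians.

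**Figure D2:**
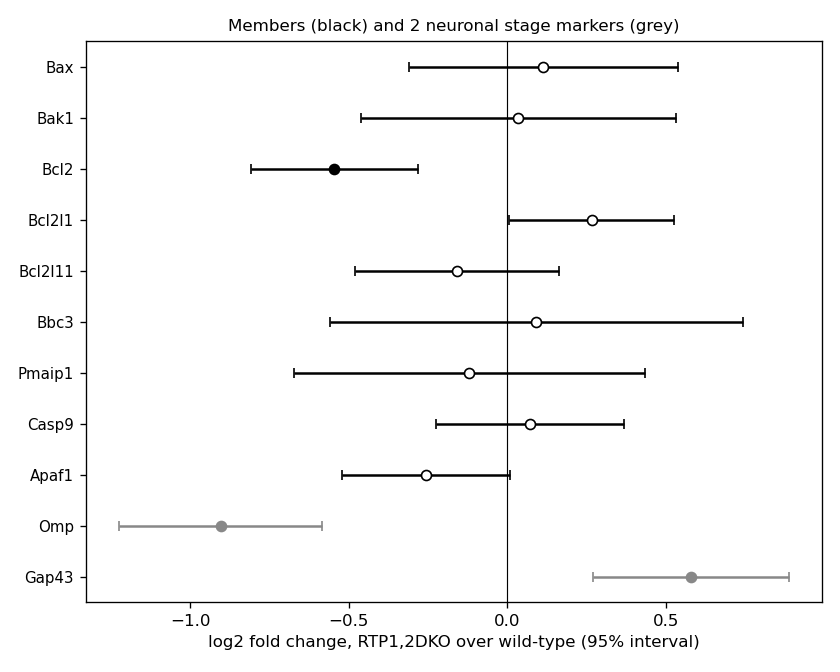
Log2 fold change of each member (black) and of 2 stage markers (grey) in RTP1,2DKO over wild-type, with 95% intervals by edgeR's quasi-likelihood fit. Filled points passed an adjusted p of 0.05. Bcl2 is the only filled member, at -0.55, between 0 and Omp at -0.90, while the intervals of 7 members include 0.

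Neither effector differed between the groups beyond the spread of the mice. Bax, on chromosome 7 from 45461697 to 45466898, had 160.3, 167.0 and 205.1 normalized counts in the wild-type and 170.7, 199.7 and 204.8 in RTP1,2DKO. The groups overlapped over most of their range. Its log2 fold change was 0.11 (95% interval -0.31 to 0.54, adjusted p = 0.91 by edgeR's quasi-likelihood test), so that an increase of up to 45.1% lies within the interval. Bak1, on chromosome 17 from 27019810 to 27029009, had 125.2, 104.0 and 130.1 normalized counts in the wild-type and 124.3, 106.4 and 137.2 in RTP1,2DKO. In both groups mouse 2 was the lowest. Its log2 fold change was 0.03 (95% interval -0.46 to 0.53, adjusted p = 0.98 by the same test). These genes rested on 109 to 229 counts per mouse.

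None of the 3 BH3-only genes passed the test. Bcl2l11, on chromosome 2 from 128126038 to 128162547, had 1743, 1587 and 1256 normalized counts in the wild-type and 1507, 1447 and 1155 in RTP1,2DKO. Mouse 3 was the lowest in both groups, and the groups overlapped. Its log2 fold change was -0.16 (95% interval -0.48 to 0.16, adjusted p = 0.78 by edgeR's quasi-likelihood test). Bbc3, a classical target of p53, on chromosome 7 from 16308393 to 16318205, had 105.5, 77.3 and 67.3 normalized counts in the wild-type and 99.1, 105.5 and 61.7 in RTP1,2DKO. Mouse 3 was again the lowest of each group. The log2 fold change of Bbc3 was 0.09 (95% interval -0.56 to 0.74, adjusted p = 0.96 by the same test). Pmaip1, also a p53 target, on chromosome 18 from 66458533 to 66465565, had 147.9, 204.2 and 149.9 normalized counts in the wild-type and 110.6, 145.6 and 205.8 in RTP1,2DKO. It had the largest spread of any member within RTP1,2DKO, a coefficient of variation of 31.2%, and its log2 fold change was -0.12 (95% interval -0.67 to 0.43, adjusted p = 0.93 by the same test). The directions of Bak1, Bbc3 and Pmaip1 each turned when single mice were left out. For Bbc3 and Pmaip1, changes of up to 67.2% and 34.9% upward lie within the intervals, so that increases of this size could not be told from no change.

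Neither apoptosome gene passed the test. Apaf1, on chromosome 10 from 90989311 to 91082770, had 2082, 2355 and 1883 normalized counts in the wild-type and 1881, 1666 and 1746 in RTP1,2DKO. The groups were separate, by the narrow gap between 1883 in wild-type mouse 3 and 1881 in RTP1,2DKO mouse 1. Its log2 fold change was -0.26 (SE 0.12, 95% interval -0.52 to 0.01, adjusted p = 0.45 by edgeR's quasi-likelihood test), negative in all 12 alternatives. Casp9, on chromosome 4 from 141793612 to 141815976, had 876.2, 1120 and 1164 normalized counts in the wild-type and 1017, 1138 and 1165 in RTP1,2DKO. Wild-type mouse 1 was the lowest of the 6, and the others were close together. The log2 fold change of Casp9 was 0.07 (95% interval -0.23 to 0.37, adjusted p = 0.92 by the same test), and it turned to -0.04 without wild-type mouse 1.

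Levels of different genes can be compared only per transcript length, for which TPM, a share of all transcripts scaled to one fixed total per mouse, was used. In both groups Bcl2l1 was the highest of the 9, with 21.8 to 36.3 TPM in the wild-type and 23.7 to 41.1 TPM in RTP1,2DKO. Bax was second, at 15.7 to 19.6 TPM in the wild-type and 15.1 to 17.5 TPM in RTP1,2DKO, clear of the genes above and below it in each group. Bcl2l11, Bcl2, Apaf1 and Casp9 followed at means of 12.6, 11.7, 11.5 and 10.1 TPM in the wild-type, with ranges that overlapped between neighbours. In RTP1,2DKO the same 4 had means of 9.76, 7.09, 8.06 and 8.98 TPM, Bcl2 now being the lowest of them, again with overlapping neighbours. Pmaip1, Bak1 and Bbc3 were lowest and not separable from each other, with means of 2.59, 2.58 and 1.91 TPM in the wild-type and 1.92, 2.27 and 1.72 TPM in RTP1,2DKO. Bak1 was thus well below Bax in every mouse. The TPM of Bax rests on an effective length of 315 bases for a transcript of 869 bases, more of a correction than for the longer members. The TPM of Bcl2 also depends on how reads were split between its transcripts, as given below.

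**Figure D3:**
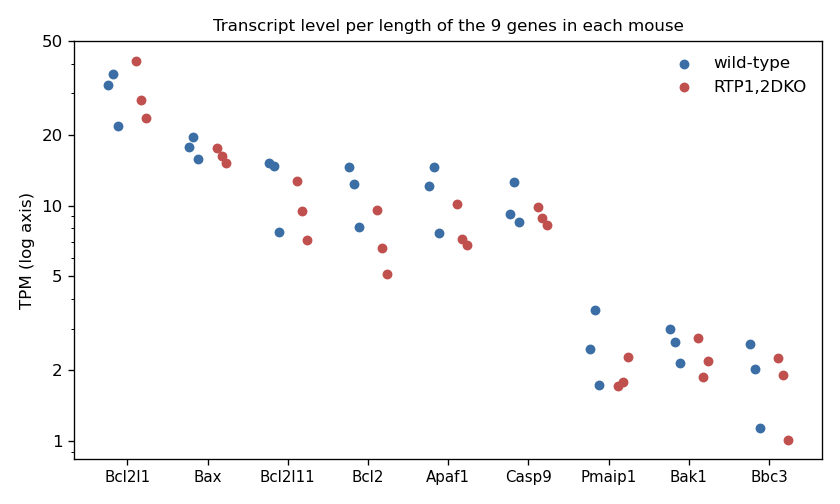
TPM of the 9 members in each mouse on a log axis, in the order of the wild-type means (blue, wild-type; red, RTP1,2DKO; points are mice). Bcl2l1 and Bax stand at the top in both groups, 4 genes share a middle range, and Pmaip1, Bak1 and Bbc3 lie between 1.01 and 3.60 TPM.

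The ratio of Bax to Bcl2, a common summary of the balance between effector and guardian, was taken within each mouse and given no test, since it is a score over members. From TPM, the planned measure, log2 of Bax over Bcl2 was 0.28, 0.66 and 0.95 in the wild-type and 0.87, 1.29 and 1.55 in RTP1,2DKO. RTP1,2DKO was higher by 0.61 in the mean, but wild-type mouse 3 (0.95) overlapped with RTP1,2DKO mouse 1 (0.87). A ratio of normalized counts was added later, with the data seen. It is not corrected for transcript length, so its sign does not tell which gene is higher. This log2 ratio was -3.44, -3.56 and -3.07 in the wild-type and -3.01, -2.60 and -2.47 in RTP1,2DKO. By it the groups were separate, with RTP1,2DKO higher by 0.66 in the mean, beside log2 fold changes of 0.11 for Bax and -0.55 for Bcl2. The log2 ratio of Bax to Bcl2l1 from TPM averaged -0.74 ± 0.24 in wild-type against -0.89 ± 0.30 in RTP1,2DKO mice (SD, n = 3 each). From normalized counts, again without correction for length, it averaged -3.40 ± 0.24 against -3.54 ± 0.30. Both differences were within the spread.

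The files split 5 of the 9 genes into several transcripts, and kallisto's split of reads between similar transcripts was unstable. For Apaf1, the transcript of 6514 bases held 51.2%, 66.3% and 73.1% of the gene's counts in the wild-type and 93.0%, 2.18% and 1.21% in RTP1,2DKO. The shorter of the 2 Bcl2 transcripts, 2147 bases against 7209, held between 4.18% and 19.2% of its counts in the wild-type and between 8.98% and 13.6% in RTP1,2DKO. Isoforms were therefore not compared between genotypes, and sums per gene were used. The summed counts of a gene do not depend on this split. Its summed TPM does where its transcripts differ in length, as those of Bcl2 do. The TPM rank of Bcl2 and its TPM ratio to Bax thus rest in part on an unstable split.

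Around the members, 79 further genes of apoptosis were read from the same fit, and 1 of them passed. Mapk10, which encodes the neuronal kinase JNK3, had 4224, 3959 and 3604 normalized counts in the wild-type and 2558, 2680 and 2516 in RTP1,2DKO. The groups were far apart, a log2 fold change of -0.60 (SE 0.12, adjusted p = 0.0086 by edgeR's quasi-likelihood test). Without RTP1,2DKO mouse 3 its adjusted p was 0.053, with a log2 fold change of -0.59. It moved in the same direction as the mature OSN markers given above, whose part in it was not tested. Of the 79, 10 (12.7%) had an unadjusted p under 0.05, against 11.8% of all genes, and 12 (15.2%) did not overlap between the groups, against 16.4% of all genes. The share called was 1 of 79, beside 3.61% of all genes, and 1 call is too few to rank these shares. The shares over all genes include the olfactory receptor genes, which were not counted apart.

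**Figure D4:**
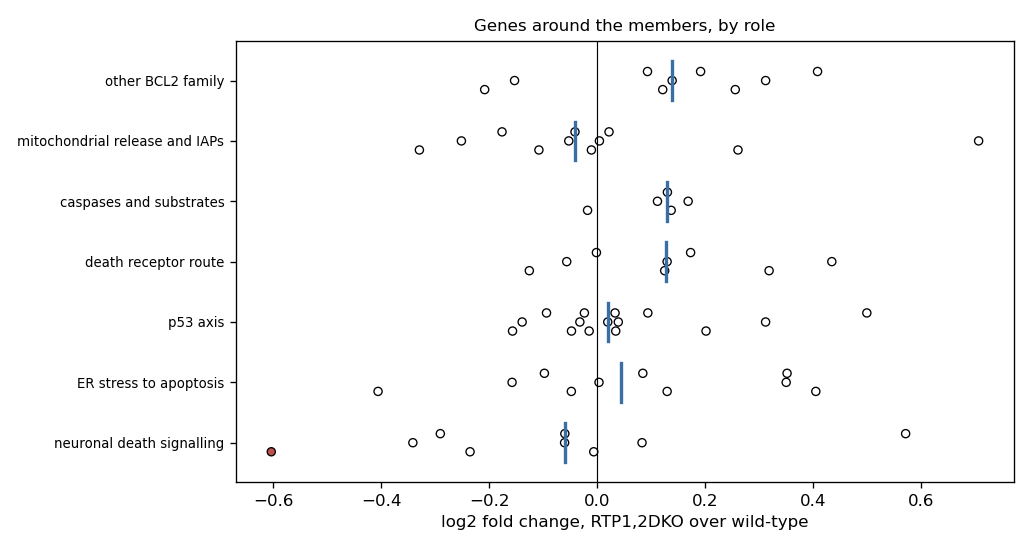
Log2 fold change (RTP1,2DKO over wild-type) of 67 genes around the members with a mean of at least 100 normalized counts, grouped by role. Each point is a gene, the blue line is the median of the group, and the filled red point passed an adjusted p of 0.05. Most genes lie close to 0, and Mapk10, at -0.60, is the only filled point.

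Among the other BCL2 genes, 0 of 16 passed. Mcl1, a guardian like Bcl2, averaged 8378 ± 349 normalized counts in wild-type against 9111 ± 297 in RTP1,2DKO mice (SD, n = 3 each), with a log2 fold change of 0.12 (adjusted p = 0.78 by edgeR's quasi-likelihood test). Bcl2a1a, Bcl2a1b and Bcl2a1d are near-identical copies between which reads can be misassigned. Bcl2a1a was at 30.0, 7.6 and 0 normalized counts in the wild-type and at 0 in RTP1,2DKO, while the 3 copies summed to 51.7, 43.9 and 51.8 in the wild-type and 80.1, 68.0 and 118.6 in RTP1,2DKO. The copies are thus reported as uncertain one by one.

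Of the 11 genes of mitochondrial release and caspase inhibition, 0 passed. Xiap, the best known inhibitor of caspases, had a log2 fold change of -0.11 (95% interval -0.39 to 0.17). Birc5 (survivin), which also serves in cell division, had 245.2, 425.5 and 370.5 normalized counts in the wild-type and 705.0, 615.7 and 379.2 in RTP1,2DKO, which overlapped, and a log2 fold change of 0.71 (adjusted p = 0.19 by edgeR's quasi-likelihood test). It passed without RTP1,2DKO mouse 3 (adjusted p = 0.037, same test). Beside it, the 5 progenitor markers Neurog1, Neurod1, Mki67, Top2a and Kit were all higher in RTP1,2DKO without overlap, though 0 of 5 passed, with a summed level of 5749 to 6961 normalized counts in the wild-type and 8136 to 10270 in RTP1,2DKO. Their part in the Birc5 values was not tested.

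Of the 5 genes listed as caspases and their substrates, 0 passed, and their median log2 fold change was 0.13.

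In the death receptor route, 0 of 11 passed. Casp8, its initiator caspase, had 430.3, 378.8 and 442.1 normalized counts in the wild-type and 502.6, 630.5 and 556.6 in RTP1,2DKO. Its groups were separate, with a log2 fold change of 0.43 (95% interval 0.11 to 0.76, adjusted p = 0.19 by edgeR's quasi-likelihood test). The value stayed between 0.34 and 0.51 whichever mouse was left out, without passing.

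Of 15 genes of the p53 axis, 0 passed, 8 were positive and 7 negative, and the median log2 fold change was 0.02. Trp53 itself had 271.0, 288.1 and 364.9 normalized counts in the wild-type and 294.0, 421.2 and 345.9 in RTP1,2DKO, with overlapping groups (log2 fold change 0.20, adjusted p = 0.78 by edgeR's quasi-likelihood test). Gtse1, a regulator of p53 in dividing cells, had a log2 fold change of 0.50 (95% interval -0.04 to 1.04). Cdkn1a, a standard p53 target chosen after its values were seen, had a log2 fold change of 0.03 (SE 0.12).

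Among 11 genes that connect ER stress to apoptosis, 0 passed, 7 were positive and 4 negative, and the median log2 fold change was 0.08. Ddit3 (CHOP), the transcription factor most used as a marker of this connection, had a log2 fold change of 0.08 (95% interval -0.57 to 0.74), with a direction that turned when single mice were left out. Atf5, part of the unfolded protein response in OSNs, averaged 7930 ± 789 normalized counts in wild-type against 8673 ± 121 in RTP1,2DKO mice (SD, n = 3 each), with a log2 fold change of 0.13 (adjusted p = 0.77 by edgeR's quasi-likelihood test). Atf4, Ppp1r15a and Trib3, which were chosen after their values were seen, were the 3 of 11 that were higher without overlap, against 7.17% of all genes tested, with log2 fold changes of 0.35, 0.35 and 0.40 and adjusted p-values of 0.19, 0.22 and 0.24 by the same test. Chac1, of the same list and also chosen after its values were seen, had a log2 fold change of -0.41 and did not pass.

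In the group of neuronal death signalling, Mapk10 was the 1 of 10 that passed. E2f1, a cell cycle factor that can drive neuronal death, had a log2 fold change of 0.57 (95% interval -0.01 to 1.15, adjusted p = 0.44 by edgeR's quasi-likelihood test).

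Markers of other cell types were read from the same fit. Gap43, a marker of immature OSNs, had a log2 fold change of 0.58 (SE 0.14, adjusted p = 0.042 by edgeR's quasi-likelihood test), and Gng8 was the other of the 2 of 5 immature markers that passed. The remaining 3 did not, with log2 fold changes of 0.19 for Stmn2, 0.04 for Crmp1 and -0.25 for Ncam1. The summed level of the 5 overlapped between the groups, at 27558 to 33833 normalized counts in the wild-type and 28478 to 33904 in RTP1,2DKO. Most of this sum came from Ncam1 and Stmn2, with wild-type means of 16689 and 12040, against 1499 for Gap43 and 201 for Gng8. It therefore says little about Gap43 and Gng8. Gap43 lost its call in all fits that left out a mouse except the one without wild-type mouse 1, with adjusted p-values up to 0.17 (same test). It also lost it with total count scaling (adjusted p = 0.13) and with edgeR's filter on low counts (adjusted p = 0.051), as did the globin gene Hbb-bt (adjusted p = 0.10 and 0.082), which also lost it with transcript length offsets (adjusted p = 0.057, same test throughout). All 4 globin genes had positive log2 fold changes, of which that of Hbb-bt passed (log2 fold change 0.88, adjusted p = 0.048, or 0.051 with pairs as a block, same test), and the sum of the 4 was 57299 to 93498 normalized counts in the wild-type and 91473 to 167980 in RTP1,2DKO. Hbb-bt kept its call in 1 of the 6 fits that left out a mouse, the one without RTP1,2DKO mouse 3, and its log2 fold change was 0.58 without RTP1,2DKO mouse 1 (adjusted p = 0.20, same test). Of the 6 macrophage markers, 0 passed, and their sums overlapped (1961 to 2010 and 1935 to 2254 normalized counts). How far such shifts enter the values of the members was not tested.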

How the data were processed

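Libraries came from 1 mouse each, 3 wild-type and 3 RTP1,2DKO. The authors assigned reads with kallisto (version not given in the sources used here) to mouse transcripts, with mm10 named in the submitters' processing notes, and deposited TPM values and estimated counts per transcript. Effective lengths were the same in all 6 files. Here, the deposited estimated counts were summed per gene (transcript name without its trailing number) and rounded. Normalized counts are these sums divided by DESeq2 (1.42.0) median-of-ratios size factors over all genes. Genes that reached 1 count in any mouse entered the quasi-likelihood F-test of edgeR 4.0.16 in R 4.3.3, with Benjamini-Hochberg adjustment over all of them. The standard error is the log2 fold change over the root of F. The fit was tested on simulated data with changes larger than that of any member. That test does not cover changes of the members' size. TPM values were summed per gene, used only to compare genes within mice, with 0.1 added before ratios.

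Mice carry numbers 1 to 3 in both groups. Over 18133 genes, deviations from the group means of same-numbered mice correlated at 0.139, 0.179 and 0.103, each above 0.1. Those of differently numbered mice correlated at -0.219 to 0.0934, the highest of which is close to 0.103. The methods also name sex-matched littermates, so the numbers were taken as pairs. Xist was high in mouse 2 of each group. The main fit has no block, since the methods name none. Normalized counts are not corrected for transcript length. The p-values set each difference against the spread between these mice. The fit draws the spread of each gene towards a trend over all genes.

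The members and lists were chosen with earlier results of these data known. Besides the 9 members and the targeted genes, the text names Xiap, Mcl1, Trp53, Ddit3 and Atf5, every other list gene past the threshold, the 6 list genes with the largest change at a mean of at least 100 normalized counts, stage and cell type markers, and the 3 genes most like the member with the smallest p. Some genes of the lists and of this rule are not reported here and were left out of the list counts. Marker lists for basal cells, sustentacular and gland cells, ciliated cells, neutrophils, lymphocytes, ensheathing glia and stroma had 0 genes past the threshold. Alternatives were TMM, total count scaling, filterByExpr, DESeq2's Wald test, the replicate block, transcript length offsets and leaving out each mouse. The ratio of normalized counts was added after seeing the data. A marker list's range is its summed normalized count. Gene positions and coding sequences came from GENCODE M21 (GRCm38). Figures and summaries were made in Python 3.11.15 with pandas 2.3.3 and matplotlib 3.10.9.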

Additional observations from a re-analysis of the deposited data

How the results depend on the processing

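Bcl2 was the 1 member called in the main analysis. The count of members called fell to 0 with total count scaling and with transcript length offsets, and was 0 to 1 over the 6 fits that left out a mouse. The log2 fold change of Bcl2 was -0.58 with total count scaling and -0.50 with transcript length offsets, both no longer past the threshold, and -0.63 to -0.48 with each mouse left out, past it in 3 of 6 fits. The cause of these losses was not tested. The length offset of Bcl2 also rests on the unstable split of reads between its transcripts. In the list of 79 genes, 1 to 2 were called with a mouse left out, the 2 being without wild-type mouse 3. Without RTP1,2DKO mouse 3 the 1 gene called was Birc5, which was higher (adjusted p = 0.037 by edgeR's quasi-likelihood test). Mapk10 did not pass in that fit (adjusted p = 0.053, same test). When a replicate was left out, the log2 fold change changed sign for Bak1 (-0.058 to 0.13), Bbc3 (-0.055 to 0.30), Pmaip1 (-0.39 to 0.068), Casp9 (-0.045 to 0.15) and Ddit3 (-0.18 to 0.37), none of which passed the test in any fit. Over all genes, 598 to 777 were called with a mouse left out and 670 to 1108 otherwise. The replicate block, with the mice paired by number, gave 1012 calls over all genes and a Bcl2 log2 fold change of -0.55. It changed no member's call. Of the 24 genes for which it was compared, it changed the call of Hbb-bt alone. Bax, Bak1, Bbc3 and Pmaip1, with 61 to 229 counts per mouse, have the widest intervals of the members.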
